A study of Mus musculus with 10 samples.

Results

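Sonic hedgehog (Shh) and 7 genes that receive or carry its signal were followed in single-cell RNA sequencing of embryonic mouse back skin. The members were taken by symbol: the ligand Shh, the receptor Ptch1, the decoy receptor Hhip, the transducer Smo, the inhibitor Sufu and the transcription factors Gli1, Gli2 and Gli3. They are 8 of the 27998 genes listed at E16.5 and of the 32285 genes listed at E15.5 and E17.5. The 10 libraries came from Control and MOFfl/fl/K14Cre embryos at E15.5 and E16.5, 2 of each per stage, and from 1 Control and 1 QPCfl/fl/K14Cre embryo at E17.5. In MOFfl/fl/K14Cre (MOF cKO) both alleles of Kat8, which encodes the histone acetyltransferase MOF, are floxed, and in QPCfl/fl/K14Cre (QPC cKO) both alleles of Uqcrq, a subunit of mitochondrial complex III, are floxed. The Cre transgene is driven by Krt14, so deletion is directed to the epithelium and not to the dermis. The strain was a mix of C57Bl/6J and CD-1, and controls were wild-type or heterozygous littermates. The study describes MOF cKO replicate 6 at E15.5 as mosaic for the loss of MOF.

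Hedgehog ligand made by the epithelium binds Ptch1 and lifts its block on Smo, after which Gli2 and Gli3 are released from Sufu and act as transcription factors. Gli1, Ptch1 and Hhip are transcribed in response, so their RNA is commonly read as a measure of the signal in the receiving cell. In embryonic skin the ligand comes from the growing hair germ, and both the germ and the dermal condensate beneath it respond to it during hair follicle growth.

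In GRCm38 (the mm10 build), per the GENCODE M21 annotation, Shh lies at chr5:28456815-28467256 and Ptch1 at chr13:63508328-63573598, both on the minus strand. Gli1 lies at chr10:127329882-127341974 and Hhip at chr8:79965851-80058006, also on the minus strand. Smo lies at chr6:29735503-29761365 and Sufu at chr19:46396896-46488804, both on the plus strand. Gli2 lies at chr1:118834132-119053619 on the minus strand and Gli3 at chr13:15463235-15730026 on the plus strand.

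Promoter windows of 250 bases before to 50 bases after the start were taken from RefSeq (GRCm38.p6) for the 6 members that matched. Those of Ptch1 and Hhip, which are transcribed in response to Gli factors, are shown because they are the 2 target genes with a window whose dermal levels are described. Capitals mark the 9 bases nearest to the Gli consensus TGGGTGGTC on either strand. The first window is chr13:63565686-63565985 on the minus strand, inside the annotated Ptch1 gene. The second is chr8:80057959-80058258 on the minus strand.
Ptch1: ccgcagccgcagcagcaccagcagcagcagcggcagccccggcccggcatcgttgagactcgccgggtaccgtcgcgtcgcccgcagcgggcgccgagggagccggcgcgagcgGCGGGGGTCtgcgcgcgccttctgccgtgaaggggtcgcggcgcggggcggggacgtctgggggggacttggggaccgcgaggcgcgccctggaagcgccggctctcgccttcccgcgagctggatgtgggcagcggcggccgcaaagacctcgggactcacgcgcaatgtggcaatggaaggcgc
Hhip: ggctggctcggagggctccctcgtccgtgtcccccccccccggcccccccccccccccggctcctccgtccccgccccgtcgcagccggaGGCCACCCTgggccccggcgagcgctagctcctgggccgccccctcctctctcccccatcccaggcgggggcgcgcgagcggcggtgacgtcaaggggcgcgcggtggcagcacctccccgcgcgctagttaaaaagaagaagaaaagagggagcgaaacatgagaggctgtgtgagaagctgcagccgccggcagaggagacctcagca
The marked bases differ from the consensus at 3 positions in Ptch1 and at 2 positions in Hhip, where the match is on the opposite strand. The exact consensus, TGGGTGGTC or its reverse complement GACCACCCA, was in 0 of the 6 member windows and in 83 of all 32851 windows (0.253%). A stretch within 2 mismatches was in 58.3% of all windows and one within 3 mismatches in 99.4%, so such a match does not set these windows apart.

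Libraries held 13609345 to 203392303 UMIs and 716 to 10653 kept cells, where a cell was kept when between 1000 and 6000 genes were detected in it and less than 10% of its UMIs were mitochondrial. Epithelial cells were those with at least 10 UMIs of Krt5 and Krt14 together, and fibroblasts those with at least 30 UMIs of Col1a1 and Col3a1 and fewer than 10 of the keratins. Levels are given as UMIs per 1e+06 UMIs of the same cells (CPM). Summed fibroblast markers, none of them used for the gate, were at 5667 to 8458 CPM in fibroblasts, and summed epithelial markers at 2375 to 5928 CPM in epithelial cells. Fibroblast markers in epithelial cells stood at 324 to 1243 CPM in 8 libraries, but at 2841 CPM in E16.5 control 1 and 4128 CPM in the E17.5 control. In those libraries 28.9% and 41.9% of epithelial cells also passed the collagen threshold. Several epithelial values are therefore given with and without such cells, while epithelial cell numbers include them. Any pair of libraries shared at most 36 cell barcodes. The E16.5 libraries were made with an earlier chemistry, so that stage and chemistry cannot be told apart. Epithelial cells of the 2 MOF cKO libraries at E16.5 numbered only 30 and 39.

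The targeted genes were read first. Kat8 in epithelial cells was at 13.0 to 13.97 CPM in E15.5 controls and 10.0 to 13.0 CPM in MOF cKO, so the groups met at this stage. At E16.5 it was at 17.6 and 14.8 CPM in controls and 8.66 and 3.75 CPM in MOF cKO. In the fibroblasts, where Krt14-Cre is not directed, Kat8 was at 9.60 and 8.23 CPM in E16.5 controls and 2.81 and 5.39 CPM in MOF cKO, a log2 fold change of -0.95 ± 0.31 (SE) that did not pass across all genes (adjusted p = 0.136 by edgeR's quasi-likelihood test with Benjamini-Hochberg adjustment). The part of this in the dermal results was not tested. Uqcrq at E17.5 was at 106 CPM in control and 43.9 CPM in QPC cKO epithelial cells, and at 69.4 and 122 CPM in fibroblasts. Whether the 3' ends counted lie in the deleted parts is not given in the sources used here, so these levels check the labels only in part.

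In control skin Shh RNA was almost confined to the epithelium. Epithelial Shh was at 15.4 and 10.5 CPM at E15.5, 5.97 and 9.63 CPM at E16.5 and 21.1 CPM at E17.5, against 0.07 to 0.44 CPM in the fibroblasts of the same libraries. All 5 controls had more Shh in epithelial cells, as held for 29.2% of all genes, and the fitted log2 ratio was 6.21 ± 0.46 (SE, n = 5 libraries, adjusted p = 0.000333 by edgeR's quasi-likelihood test with Benjamini-Hochberg adjustment). Of all genes tested here 61.2% passed, 30.5% as higher and 30.8% as lower in the epithelium, and 6 of the 8 members passed.

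Shh was the only member higher in the epithelium, and 5 members were lower there. Among them Smo differed by a log2 ratio of -0.77 ± 0.09 (SE, adjusted p = 0.00106), Gli3, which acts mainly as a repressor without ligand, by -0.82 ± 0.11 (adjusted p = 0.00165), and Sufu by -0.50 ± 0.10 (adjusted p = 0.00539). Gli1 was also lower in the epithelium, at -0.49 ± 0.09 (adjusted p = 0.00498). Hhip, which binds ligand without passing on a signal, was at 0.13 to 3.63 CPM in the epithelium of E15.5 and E16.5 controls and at 5.58 to 13.96 CPM in their fibroblasts, a log2 ratio of -2.52 ± 0.50 over the 5 controls (adjusted p = 0.00624) that was -4.49 without the cells in both gates. Ptch1 and Gli2 showed no difference past the threshold, with log2 ratios of 0.03 ± 0.10 (adjusted p = 0.843) and 0.04 ± 0.10 (adjusted p = 0.744).

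**Figure D1:**
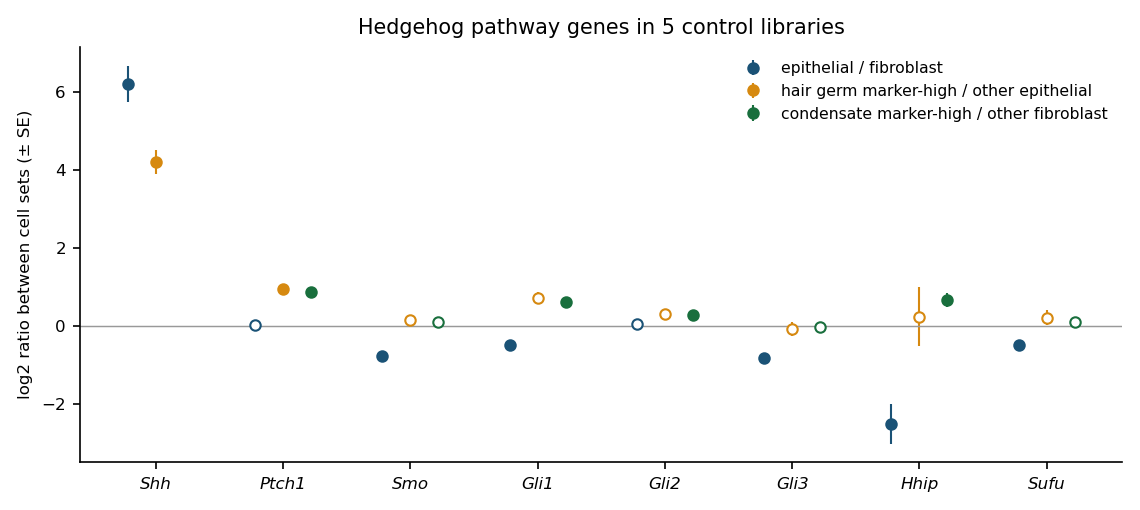
Log2 ratio (y axis, with SE bars) of each member (x axis) in the 5 control libraries. The 3 contrasts are epithelial against fibroblast cells, hair germ marker-high against other epithelial cells, and condensate marker-high against other fibroblasts. Shh stands far to the epithelial and hair germ side, at 6.21 and 4.21, and Ptch1 is higher in both marker-high groups, at 0.95 and 0.86.

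Within the control epithelium Shh lay mostly in cells with more hair germ marker RNA. Cells with at least 5 UMIs of 6 hair germ markers (Lhx2, Edar, Sox9, Lef1, Pthlh and Dkk4) held 29.7 and 19.5 CPM of Shh at E15.5, 23.2 and 22.9 CPM at E16.5 and 48.7 CPM at E17.5. The other epithelial cells of these controls held 0.996 to 2.98 CPM, below the hair germ level of every control. The log2 ratio was 4.21 ± 0.31 (SE, n = 5, adjusted p = 0.00892), while 0.39% of all genes passed and 0.283% passed as higher. Ptch1 was higher in the same cells by 0.95 ± 0.11 (adjusted p = 0.0312), and Gli1, at 0.72 ± 0.14 (adjusted p = 0.0968), did not pass. In every control 5 of the 8 members were higher in these cells (16.9% of all genes) and 0 were lower (6.38%). Without the cells in both gates 680 genes passed in place of 51 (5.44%), Gli1 among them at 1.07 (adjusted p = 0.00923). No member passed without either E15.5 control or without E16.5 control 1, where 1 to 7 genes passed in all, while 3 members passed without the E17.5 control, where 1318 genes did (10.6%). Ptch1 also did not pass without E16.5 control 2 or with under 5% mitochondrial UMIs, where Shh did.

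Cell by cell, 67.7% to 90.4% of Shh-positive epithelial cells of the controls lay in the hair germ marker-high group, against 17.8% to 45.8% of Shh-negative cells. Shh-positive cells were few. They made up 7.55% and 7.22% of epithelial cells in E15.5 controls, 2.63% and 6.05% at E16.5 and 7.59% at E17.5, while at most 0.95% of fibroblasts in any library had an Shh UMI. The positive cells were unequal, with a mean of 2.35 to 6.62 UMIs each in the controls and up to 49 in 1 cell.

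In the control dermis Ptch1 and Gli1 were higher in cells with dermal condensate markers in every library, and Hhip in 4 of 5. Fibroblasts with at least 3 UMIs of Sox2, Sox18, Bmp4, Prdm1, Tbx18 and Cntfr held Ptch1 at 272 and 243 CPM at E15.5, 148 and 77.5 CPM at E16.5 and 243 CPM at E17.5. The other fibroblasts of the same controls held it at 119, 110, 96.8, 62.0 and 124 CPM, lower in 5 of 5 libraries. Marker-high cells were 13.7% and 18.8% of control fibroblasts at E15.5, 22.5% and 14.8% at E16.5 and 53.3% at E17.5. At E17.5 they were thus most of the gated fibroblasts, and the group is not the condensate alone. Ptch1 was higher by a log2 ratio of 0.86 ± 0.10 (SE, adjusted p = 0.000178), Gli1 by 0.62 ± 0.08 (adjusted p = 0.000329), Hhip by 0.66 ± 0.19 (adjusted p = 0.0412) and Gli2 by 0.27 ± 0.07 (adjusted p = 0.028). So 4 of 7 members tested passed as higher, where 6.77% of all genes did, and 0 passed as lower (7.37%). Hhip was at 5.60 CPM in these cells and 9.25 CPM in the other fibroblasts of E16.5 control 1, against its direction in the other 4 controls. The members higher in every control were Ptch1, Gli1, Gli2 and Smo (14.9% of all genes), and 0 were lower in every control (8.08%). Smo, Gli3 and Sufu had log2 ratios of 0.09, -0.02 and 0.11, and the ratio of Gli3 was 0.04 when scaled by library size alone. Gli2 did not pass without any 1 of 3 controls (both at E15.5 and E16.5 control 1), and Hhip did not pass without either E15.5 control or E16.5 control 2. At doubled gate thresholds Gli2 did not pass, and DESeq2 called only Ptch1 and Gli1 of the members.

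Outside both gates lay a small population with high levels of the same genes. Kept cells in neither gate and of no other marked class made up 1.12% to 9.93% of kept cells, and their condensate markers summed to 328 to 2011 CPM, against 92.8 to 374 CPM in fibroblasts. In controls these cells held Ptch1 at 371 and 233 CPM at E15.5, 277 and 175 CPM at E16.5 and 267 CPM at E17.5, above the fibroblasts of the same library in each case. Their Hhip was at 58.9 and 37.0 CPM at E15.5, 21.3 and 9.91 CPM at E16.5 and 52.8 CPM at E17.5, again above the fibroblasts of each library. This set was chosen after its values were seen and gets no test. Markers of suprabasal keratinocytes were not used to class cells, so epithelial cells low in Krt5 and Krt14 can be part of it. Shh in the set was at 2.80 and 1.88 CPM in E15.5 controls, against 0.09 and 0.07 CPM in their fibroblasts. In the other controls it was at 0 to 0.58 CPM.

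**Figure D2:**
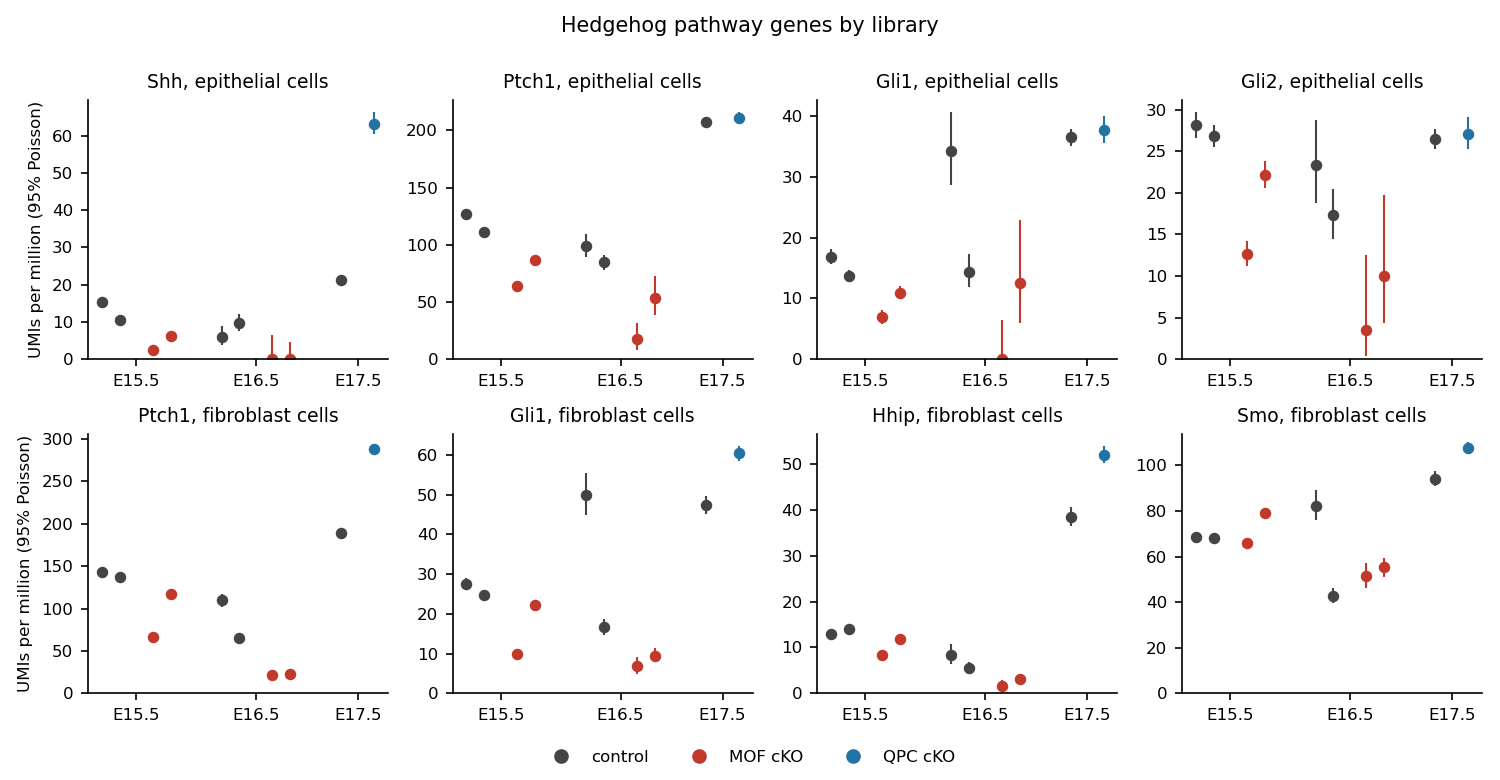
CPM of 4 members in epithelial cells (Shh, Ptch1, Gli1, Gli2) and 4 in fibroblasts (Ptch1, Gli1, Hhip, Smo). Each point is a library, grouped by stage and genotype, with a 95% Poisson interval that covers counting error only, and Shh is at 0 in both E16.5 MOF cKO libraries.

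The MOF comparison asked what loss of this acetyltransferase in the epithelium did to ligand and response. At E15.5 epithelial Shh was at 15.4 and 10.5 CPM in controls and 2.51 and 6.30 CPM in MOF cKO replicates 5 and 6. Both MOF cKO libraries were below both controls, with means of 12.9 ± 3.49 and 4.40 ± 2.68 CPM (SD, n = 2). The log2 fold change was -1.46 ± 0.41 (SE), which did not pass across 14625 genes (adjusted p = 0.503, unadjusted p = 0.0182). Replicate 6, the library the study calls mosaic, lay nearer to the controls.

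No gene passed in this comparison by edgeR (0%), 1360 genes (9.3%) had an unadjusted p under 0.05, 5 of the 8 members among them, and DESeq2 called 132 genes. The receptor Ptch1 was at 127 and 111 CPM in control and 64.4 and 86.5 CPM in MOF cKO epithelium, a log2 fold change of -0.54 ± 0.12. Gli1 was at 16.9 and 13.7 against 6.87 and 10.9 CPM (-0.67 ± 0.22), and Gli2, the main activator, at 28.1 and 26.8 against 12.6 and 22.2 CPM (-0.56 ± 0.21). In all 3 the groups did not overlap. In the other direction Smo was at 37.9 and 32.5 CPM in controls and 47.1 and 50.2 CPM in MOF cKO, and Gli3 at 18.3 and 20.1 against 24.4 and 23.3 CPM, with log2 fold changes of 0.60 ± 0.14 and 0.45 ± 0.18. Each of these 5 had an adjusted p of 0.503. Sufu and Hhip, at log2 fold changes of -0.14 ± 0.18 and -0.37 ± 0.32, had lower values in both MOF cKO libraries. Without overlap 6 of 8 members were lower and 2 higher, while 31.6% of all genes were lower and 19.1% higher in this way.

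Leaving out 1 MOF cKO library decided these calls. Without replicate 6, 7015 of 15415 genes passed (45.5%), with the remaining MOF cKO library assumed to vary like the controls, and 6 members were among them: Shh (log2 fold change -2.08, adjusted p = 0.0119), Ptch1 (-0.61, 0.0108), Gli1 (-0.88, 0.0174), Gli2 (-0.85, 0.00404), Smo (0.69, 0.00983) and Gli3 (0.62, 0.0115). Without replicate 5, 14 genes passed (0.0915%) and no member did.

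In E15.5 fibroblasts the 3 response genes were lower in replicate 5 and nearer to the controls in replicate 6. Ptch1 was at 143 and 138 CPM in controls and 66.7 and 117 CPM in MOF cKO. Gli1 was at 27.5 and 24.7 against 9.91 and 22.2 CPM, and Hhip at 13.0 and 13.96 against 8.26 and 11.8 CPM. Each of the 3 was lower in both MOF cKO libraries than in both controls, and their log2 fold changes were -0.65 ± 0.22, -0.74 ± 0.33 and -0.45 ± 0.15 (SE, adjusted p = 0.273, 0.356 and 0.263). Of all genes 20.4% were lower without overlap. Smo, Gli2 and Sufu differed by 0.06, -0.08 and 0.12 and overlapped between the groups. Gli3 was at 40.5 and 44.7 CPM in controls and 51.2 and 48.9 CPM in MOF cKO (0.21 ± 0.08, adjusted p = 0.306), the 1 member that was higher without overlap, as were 26.3% of all genes. No gene passed by edgeR (0%), 2538 of 16268 (15.6%) had an unadjusted p under 0.05, 3 of the 7 members tested among them, and DESeq2 called 494 genes. Without replicate 6, 114 genes passed (0.692%), among them Ptch1 (-1.05, adjusted p = 0.0107) and Gli1 (-1.37, adjusted p = 0.0211).

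**Figure D3:**
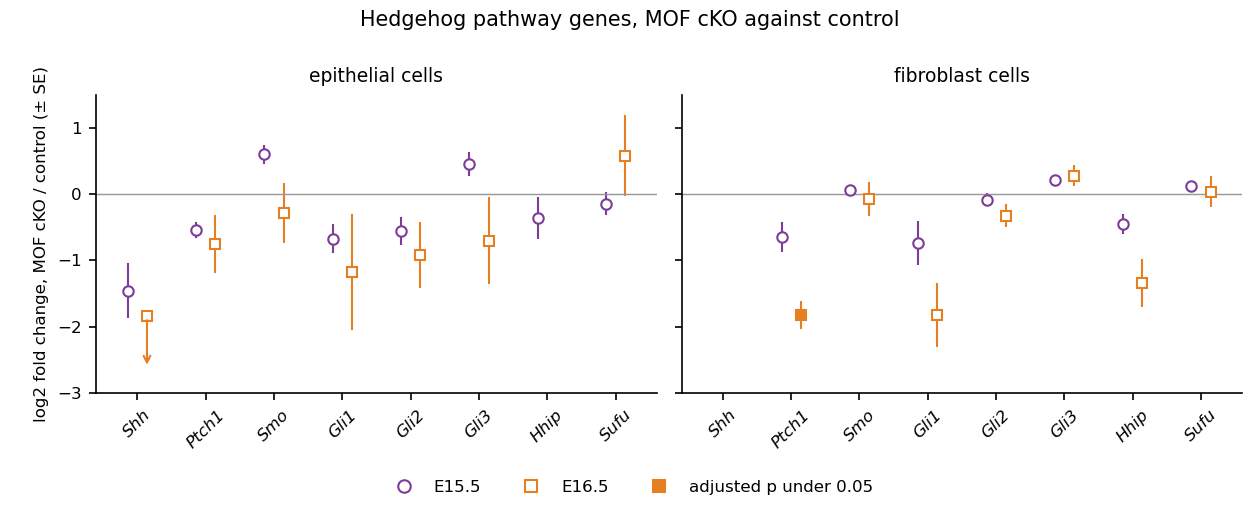
Log2 fold change (y axis, with SE bars) of each member (x axis) in MOF cKO against control. Epithelial cells and fibroblasts are shown at E15.5 and E16.5. Filled points passed an adjusted p of 0.05, which held for Ptch1 in E16.5 fibroblasts at -1.83, and the arrow marks a bound for Shh, which had no UMI in E16.5 MOF cKO epithelial cells.

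At E16.5 no Shh UMI was found in MOF cKO epithelial cells. Controls had 23 and 73 Shh UMIs, at 5.97 and 9.63 CPM, in 7 and 31 positive cells. Both MOF cKO libraries had 0 Shh UMIs among 1377845 UMIs and 0 of 69 cells, which allows a share of up to 4.35% of cells, between the 2.63% and 6.05% of the controls. By cells, a lower share is therefore not shown. Hair germ marker-high cells, which held most Shh in the controls, numbered 2 and 8 in MOF cKO (6.67% and 20.5% of epithelial cells), while they were 19.2% and 26.4% in the controls, so fewer such cells and less Shh in each cannot be told apart. Taken as 3 UMIs over the group, the limit is 2.18 CPM, which would put the level at least 3.58-fold lower than the control mean of 7.80 ± 2.59 CPM (SD, n = 2). This bound counts UMIs as independent, while Shh UMIs came several to a cell, so it is less firm than it looks, and with 1 library left out it ranged from 1.502-fold to 4.43-fold. Shh did not pass the test (adjusted p = 0.107), but did without the filter on low counts (0.00925) and at doubled gate thresholds (0.0411), where 2007 and 1225 genes passed in all.

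No member passed in E16.5 epithelium by edgeR or by DESeq2, where edgeR called 578 of 9938 genes (5.82%), and 1 of 7, Shh, had an unadjusted p under 0.05 (28.1% of all genes). Ptch1 was at 98.9 and 84.6 CPM in controls and 17.3 and 53.7 CPM in MOF cKO, without overlap, a log2 fold change of -0.76 ± 0.44 (SE, adjusted p = 0.295). Gli1 was at 34.3 and 14.4 against 0 and 12.5 CPM and Gli2 at 23.4 and 17.3 against 3.46 and 10.0 CPM, both without overlap, with adjusted p of 0.403 and 0.270. Without the cells in both gates Gli1 was at 28.6 and 14.03 against 0 and 15.3 CPM, and the groups overlapped. Of 7 members tested 5 were lower without overlap, as were 56.4% of all genes, and 0 were higher (12.8%). Gli1 and Gli3 are among these 5, and without the cells in both gates, 28.9% of the epithelial cells of control 1, both overlapped between the groups. Of the 578 genes 465 were higher (4.68%) and 113 lower (1.14%), a split that became 265 and 537 when scaled by library size alone, which moved the median of all genes from -0.11 to -0.70. Smo, Gli3 and Sufu had log2 fold changes of -0.28 ± 0.45, -0.70 ± 0.66 and 0.58 ± 0.61, those of Smo and Sufu changing sign with the gate or scaling.

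In E16.5 fibroblasts Ptch1 fell. It was at 109 and 65.1 CPM in controls and 21.5 and 22.8 CPM in MOF cKO, means of 87.3 ± 31.4 and 22.1 ± 0.934 CPM (SD, n = 2). Both MOF cKO values lay below both controls, and the log2 fold change was -1.83 ± 0.21 (SE, adjusted p = 0.0285). It was the only member past the threshold of 7 tested, where 583 of 12569 genes passed (4.64%), 278 of them lower (2.21%). The call was lost without E16.5 control 2 (adjusted p = 0.0541), without MOF cKO 1 (0.0654) and without MOF cKO 2 (0.0726), while the fold change stayed between -1.55 and -2.08. Among the 583 genes 305 were higher (2.43%), and 3172 of all genes (25.2%) and 3 of the 7 members had an unadjusted p under 0.05. In place of this split, by library size alone 346 were higher and 494 lower.

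The other 2 response genes had large differences that did not pass. Gli1 was at 49.9 and 16.7 CPM in controls and 6.81 and 9.50 CPM in MOF cKO, a log2 fold change of -1.83 ± 0.48 (SE, adjusted p = 0.0916). Hhip was at 8.35 and 5.58 against 1.63 and 3.14 CPM (-1.34 ± 0.36, adjusted p = 0.0934). Neither overlapped between the groups. DESeq2 called Gli1 (adjusted p = 0.00304), and without the filter on low counts edgeR called Gli1 (0.00082) and Hhip (0.017). The share of positive fibroblasts showed the same order. Ptch1 was found in 52.7% and 37.5% of control and 20.9% and 18.1% of MOF cKO fibroblasts, and Gli1 in 33.2% and 15.1% against 7.14% and 8.26%. These shares also depend on depth, which was a median of 10801 and 9755 UMIs per fibroblast in controls and 12467 and 11185 in MOF cKO.

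Smo, Sufu and Gli3 overlapped between the groups in the same cells, and Gli2 did not. Smo was at 82.3 and 42.9 CPM in controls and 51.4 and 55.2 CPM in MOF cKO, inside the control range, with a log2 fold change of -0.07 ± 0.25 (adjusted p = 0.886). Sufu was at 18.8 and 12.2 against 15.7 and 13.0 CPM (0.04 ± 0.23, adjusted p = 0.937), a sign that turned with scaling by library size (-0.10). Gli3 was at 24.2 and 18.5 against 24.3 and 22.8 CPM (0.28 ± 0.16, adjusted p = 0.339), and Gli2 at 27.5 and 18.9 against 16.3 and 17.2 CPM (-0.33 ± 0.18, adjusted p = 0.316). Of 7 members 4 were lower without overlap, where 35.8% of all genes were, and 0 were higher (18.1%).

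The condensate marker-high share of fibroblasts was 22.5% and 14.8% in E16.5 controls and 26.6% and 22.5% in MOF cKO. The cells in neither gate and of no marked class, which held more condensate marker RNA, went the other way. They were 6.67% and 9.93% of kept cells in E16.5 controls and 1.12% and 1.47% in MOF cKO. Whether the cells missing from this set were dermal or epithelial was not tested. Within condensate marker-high cells Ptch1 was at 148 and 77.5 CPM in controls and 19.4 and 28.7 CPM in MOF cKO. Among the other fibroblasts it was at 96.8 and 62.0 against 22.3 and 20.8 CPM. So MOF cKO values were below both controls in either group of fibroblasts. At E15.5 the same held in condensate marker-high cells, where Ptch1 was at 272 and 243 CPM in controls and 122 and 205 CPM in MOF cKO, and Gli1 at 43.5 and 38.5 against 17.8 and 33.3 CPM.

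Whether the MOF difference itself changed from E15.5 to E16.5 was tested as an interaction. In fibroblasts it was -1.21 ± 0.37 for Ptch1 (log2, SE, adjusted p = 0.151), -1.09 ± 0.70 for Gli1 (0.464) and -0.88 ± 0.38 for Hhip (0.268), and 0 of 7 members passed by edgeR where 188 genes did (1.26%), 63 higher (0.423%) and 125 lower (0.839%). By library size alone the split was 71 and 243. Of the members 1 had an unadjusted p under 0.05, and DESeq2 called 1, Ptch1 (adjusted p = 0.0422). In epithelial cells 15 genes passed (0.11%), 14 of them higher (0.103%) and 1 lower (0.00735%), and 0 of 8 members, none of them at an unadjusted p under 0.05 and none by DESeq2. A stage difference was therefore not shown for any member by edgeR.

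Ligand in the whole cell suspension was set beside response in the dermis. Among all kept cells Shh was at 6.18 and 4.21 CPM in E15.5 controls and 0.43 and 1.48 CPM in MOF cKO, and at 1.95 and 2.92 CPM in E16.5 controls and 0 in both MOF cKO libraries. Fewer epithelial cells and less Shh per cell cannot be told apart in this measure, and epithelial cells made up 20.9% to 31.8% of kept cells in these controls against 4.19% and 2.86% in MOF cKO at E16.5 and 10.4% in replicate 5 at E15.5, with replicate 6 between. The difference was -4.24 CPM at E15.5 and -2.44 CPM at E16.5, each with p = 0.333 by exact two-sided permutation, the smallest that 2 libraries against 2 allow. An exact permutation within both stages together gave p = 0.0556, again the smallest that is possible.

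The share of Shh-positive cells within the epithelium was lower in MOF cKO at E15.5, and at E16.5 the number of cells did not allow a statement. With every cell thinned to 5000 UMIs, 4.72% and 4.16% of epithelial cells had an Shh UMI in E15.5 controls and 0.951% and 2.14% in MOF cKO. At E16.5 the shares were 1.98% and 3.70% in controls and 0 in both MOF cKO libraries. These zeros rest on 30 and 39 cells before thinning, which allow shares of up to 10% and 7.69%, above both controls. MOF cKO was lower by 2.87 percentage points on average (4.11 unthinned), with p = 0.333 per stage and 0.0556 over both by exact permutation, and the latter leans on the same zeros. Gli1 in fibroblasts, on the log2(CPM + 1) scale, gave the same order and the same p, with differences of -0.77 at E15.5 and -1.73 at E16.5.

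Within each stage the MOF cKO libraries held the lowest Shh and the lowest Ptch1, Gli1 and Hhip in fibroblasts. At E15.5 replicate 5 had less Shh than replicate 6 and also less dermal Ptch1, Gli1 and Hhip. At E16.5 both MOF cKO libraries had no Shh and dermal Ptch1 at 21.5 and 22.8 CPM. The controls did not follow 1 order: E16.5 control 1 had less Shh than control 2 and more of all 3 dermal genes.

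**Figure D4:**
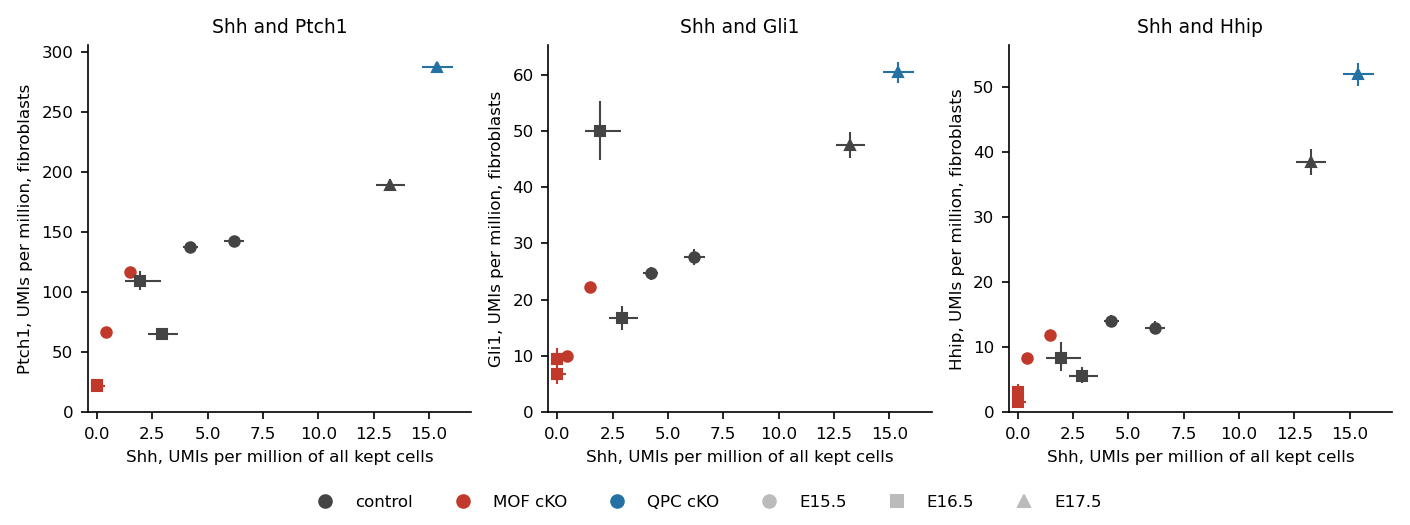
CPM of Shh in all kept cells (x axis) against CPM of Ptch1, Gli1 and Hhip in the fibroblasts of the same library (y axes). The 10 libraries are coloured by genotype, with stage shown by marker shape. MOF cKO libraries lie to the lower left of the controls of their stage, and the E17.5 libraries, at 13.2 and 15.4 CPM of Shh, lie farthest to the right.

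The E17.5 pair asked the same of QPC loss, with 1 library each, so that ratios carry 95% counting intervals and no test. Epithelial Shh was at 21.1 CPM in the control and 63.3 CPM in QPC cKO, a ratio of 2.99 (2.79 to 3.20). The ratio was 1.92 (1.80 to 2.06) without the cells in both gates, which were 41.9% of the control's and 8.78% of the QPC cKO's epithelial cells, 1.67 (1.56 to 1.79) in hair germ marker-high cells and 1.16 (1.09 to 1.24) in all kept cells. The hair germ marker-high share of epithelial cells was 42.0% in control and 76.3% in QPC cKO. This share was read only with the cells in both gates included, so the part of those cells in it was not tested. All 4 ratios were above 1, and their size moved with the cells compared. The intervals count UMIs as independent. Epithelial Shh UMIs lay in only 233 control and 154 QPC cKO cells, with up to 49 and 60 in 1 cell. The intervals are therefore too narrow even within 1 library. Shh-positive cells were 7.59% and 13.3% of the epithelium and held a mean of 6.62 and 11.8 UMIs. Thinned to 5000 UMIs they were 4.33% and 9.399%, and without the cells in both gates 7.69% and 9.65%. In hair germ marker-high cells the unthinned shares were 15.2% and 16.6%, and in all kept cells 4.75% and 3.29%, lower in QPC cKO.

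Epithelial Ptch1 was at 207 and 211 CPM, a ratio of 1.02 (0.99 to 1.05) that was 0.87 (0.84 to 0.90) without the cells in both gates and 0.74 (0.72 to 0.77) in hair germ marker-high cells. None of the 3 ratios of Ptch1 came near that of Shh in the same cells. In all kept cells both were higher in QPC cKO, Ptch1 at 189 and 228 CPM and Shh at 13.2 and 15.4 CPM. There epithelial cells were 57.3% of kept cells in control and 19.0% in QPC cKO. These 2 shares include the cells in both gates, 1286 of 3069 epithelial cells in control and 102 of 1162 in QPC cKO. Epithelial Gli1 was at 36.5 and 37.8 CPM, a ratio of 1.03 (0.96 to 1.11) that was 1.25 (1.15 to 1.37) without the cells in both gates and 0.98 (0.90 to 1.06) in hair germ marker-high cells. Hhip and Gli3 turned with the gate, Hhip from 0.31 (0.26 to 0.37) to 2.46 (1.60 to 3.80) and Gli3 from 0.74 to 1.05 without the cells in both gates. Smo and Gli2 changed direction too. Smo was at 74.0 and 71.4 CPM, and at 62.2 and 68.8 CPM without those cells, and Gli2 at 26.4 and 27.1, then 28.1 and 26.8 CPM. Sufu was lower in QPC cKO in each set, at 16.6 and 11.6 CPM, 14.1 and 10.9 CPM without those cells, and 16.1 and 11.3 CPM in hair germ marker-high cells. Counting genes of at least 10 CPM that differed over 1.5-fold, 1 of 8 members was higher (4.49% of all genes) and 1 lower (14.1%), and without the cells in both gates 1 of 7 was higher (1.73%) and 0 lower (5.29%), Shh being the higher one in both.

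In E17.5 fibroblasts Ptch1 was at 189 CPM in control and 287 CPM in QPC cKO, a ratio of 1.52 (1.48 to 1.56). Gli1 was at 47.5 and 60.4 CPM (1.27, 1.20 to 1.35) and Hhip at 38.5 and 52.0 CPM (1.35, 1.27 to 1.44). Smo, Gli2 and Gli3 had ratios of 1.14, 1.16 and 1.21, and Sufu 1.05 (0.96 to 1.15), whose interval holds 1. Only Ptch1 of 7 members passed 1.5-fold, as 4.28% of all genes did, and 0 were lower by that much (3.97%). The fibroblast gate left out cells that passed both thresholds, 1286 in control and 102 in QPC cKO, beside 1759 and 3355 gated fibroblasts. The part of this in the ratios was not tested. The intervals of these ratios leave out the spread between embryos, which a single library cannot give. Among the 2 controls at E16.5 fibroblast Ptch1 alone ranged from 65.1 to 109 CPM.

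**Figure D5:**
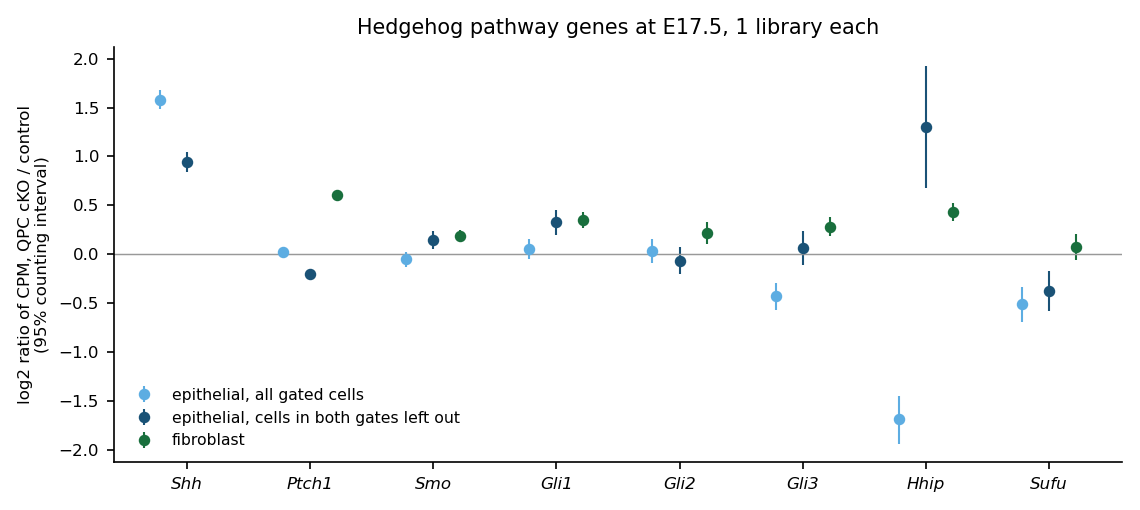
Log2 of the CPM ratio of QPC cKO to control at E17.5 (y axis) for each member (x axis), with 95% counting intervals. Ratios are shown for epithelial cells, epithelial cells without those in both gates, and fibroblasts. Shh in fibroblasts is not drawn, Hhip in the epithelium changes sign when cells in both gates are left out, and Ptch1 has a ratio of 1.52 in fibroblasts.

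A list of 34 further pathway genes was read in the same fits. In the controls 6 of 31 tested were higher and 18 lower in the epithelium (30.5% and 30.8% of all genes). The co-receptors Boc, Cdon and Gas1, which help Ptch1 bind ligand, were lower, with log2 ratios of -0.93 ± 0.08 (SE, adjusted p = 0.000571), -0.78 ± 0.08 (0.000675) and -0.77 ± 0.09 (0.00117). Gpc3, which competes for ligand, was lower by -1.49 ± 0.18 (0.00117), and Bcl2, an inhibitor of cell death, by -0.55 ± 0.06 (0.00115). The list's median was -0.43, against 0.02 over all genes. In condensate marker-high fibroblasts 6 of 30 were higher (6.77% of all genes) and 6 lower (7.37%), led by Foxd1, a forkhead factor, at 2.28 ± 0.23 (0.000118), with Scube1, a secreted protein, at 1.92 ± 0.41 (0.0106). There Cdon (-0.34 ± 0.05, 0.00114), Gas1 (-0.18 ± 0.05, 0.0345) and Gpc3 (-0.24 ± 0.04, 0.00283) were lower, Boc was at -0.04 ± 0.08 (0.811), and the list's median was 0.01 against 0.00 over all genes. In hair germ marker-high cells 0 of 28 passed.

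With MOF loss 0 of 28 list genes in the epithelium and 0 of 31 in fibroblasts passed at E15.5, with medians of -0.24 and -0.05. At E16.5 3 of 18 fell in the epithelium (1.14% of all genes) and 0 rose (4.68%), with a median of -0.83 against -0.11 over all genes. They were Gpc3 at a log2 fold change of -1.86 ± 0.35 (SE, adjusted p = 0.0360), Bcl2 at -2.20 ± 0.42 (0.0377) and Rab34, a ciliary GTPase, at -1.75 ± 0.34 (0.0393), and none of the 3 passed without the cells in both gates (0.0701, 0.0553 and 0.0619). None of the 3 passed without MOF cKO 1, without MOF cKO 2, with under 5% mitochondrial UMIs or with halved gate thresholds. Boc (-0.10) and Cdon (-1.26, 0.131) did not pass, nor did Gas1 (adjusted p = 0.0842). In E16.5 fibroblasts 1 of 25 rose (2.43% of all genes) and 2 fell (2.21%), with a median of 0.02. Ccnd1, a cyclin of cell cycle entry, fell by a log2 fold change of -1.47 ± 0.15 (0.0267), Bcl2 by -0.94 ± 0.16 (0.0435), and Scube2, which helps release ligand, rose by 1.19 ± 0.19 (0.0389). Scube2 and Bcl2 did not pass when any 1 library was left out, and Ccnd1 did not pass without control 2 (0.0927) or MOF cKO 1 (0.0654). The fold changes of Boc, Cdon and Gas1 there were 0.40 ± 0.20 (0.282), 0.11 ± 0.12 (0.598) and 0.49 ± 0.25 (0.289).

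Genes whose cells most resembled the Shh-positive epithelial cells were ranked by the lowest log2 ratio of CPM between Shh-positive and Shh-negative cells (pseudocount 10) over the 5 libraries with at least 50 Shh-positive cells. Candidates had to reach 50 CPM in the Shh-positive cells of each library, so genes high only there could enter. Among 2288 candidates the order was Fgf20 (ratios of 2.64 to 2.90), Dkk4 (2.57 to 3.94), Ascl4 (2.20 to 2.91), Lhx2 (2.08 to 3.29), Fam13a, Bmp2 (2.01 to 2.96), Rragd and Robo1 (1.72 to 1.81). Fgf20 encodes a growth factor of the hair placode, and Dkk4 and Lhx2 belong to the hair germ markers above. Ptch1 ranked 224 with ratios of 0.19 to 0.80, and the ratios were 0.27 to 0.88 for Gli1, 0.17 to 0.41 for Smo and -0.40 to -0.17 for Gli2. Around Gli1-positive fibroblasts Ptch1 ranked 1 of 1944 candidates over 9 libraries, with ratios of 0.82 to 1.84, followed by Sox11 (0.80 to 1.21), Lxn, Cd24a, Wif1, Top2a, Stmn2 and Trps1 (0.47 to 1.36). The ratios in Gli1-positive cells were 0.32 to 1.098 for Hhip, 0.26 to 0.61 for Gli2 and 0.026 to 0.251 for Sufu, and those of Smo and Gli3 lay on both sides of 0. Candidates around Gli1 likewise had to reach 50 CPM in the Gli1-positive cells of each library. Median UMIs were higher in Gli1-positive than in Gli1-negative fibroblasts of these libraries, as with 11442 against 9424 in E16.5 control 2. The exception was QPC cKO, at 18698.5 against 18901. All these ratios are a description with no test.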

How the data were processed

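Back skin of mouse embryos was dissociated and profiled by droplet single-cell RNA sequencing with 3' UMIs. Per the labels, the authors deposited UMI counts per gene and cell, made with Cell Ranger (1.3.1 or 6.1.2) on mm10, not normalized. Cells were kept by the limits in the study's methods, and counts were summed per library and gate, so libraries and not cells were the replicates. No cell annotation was used here, and doublets were not called. Sums were tested with edgeR 4.0.16 (quasi-likelihood test, filterByExpr, TMM) over all genes, at a Benjamini-Hochberg adjusted p under 0.05, with DESeq2 1.42.0 as an alternative. Control gate contrasts had the library as a term. Each stage was fitted apart. Where nothing says that libraries came from separate litters, p-values measure only the spread between these samples. Single values were compared by exact permutation. Intervals are 95% Wilson or Poisson and cover counting error only. Named are all 8 members, pathway list genes past the threshold (up to 6 per fit by lowest p, with Boc, Cdon and Gas1 always, and with 1 gene of the list not reported here) and the 8 most alike genes. Members, gates, lists and rules were chosen with earlier results of these data known. Methods were tested on simulated data.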

Additional observations from a re-analysis of the deposited data

How the results depend on the processing

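Without the low-count filter, genes called numbered 1 and 222 at E15.5 (epithelium and fibroblasts), 2007 and 1752 at E16.5, 664 and 510 for the interactions and 94 in the hair germ contrast, and members called 1 in E16.5 epithelium and 3 in E16.5 fibroblasts. By DESeq2 they numbered 132 and 494 at E15.5, 950 in E16.5 fibroblasts, 671 and 963 for the interactions and 595 in the hair germ contrast, with 2 members in E16.5 fibroblasts, 1 in the fibroblast interaction and 2 in the condensate contrast. Library size alone gave 3 and 314 interaction calls. Under 5% mitochondrial UMIs, 315 genes passed in E16.5 epithelium, 53 in the epithelial interaction and 10 in the hair germ contrast, with 1 member. Halved gate thresholds gave 257 in E16.5 epithelium, 60 in the fibroblast interaction and 600 in the hair germ contrast. Doubled thresholds gave 1225, with 1 member, in E16.5 epithelium, 63 and 308 for the interactions and 2028, with 4 members, in the hair germ contrast. Without cells in both gates 293 passed in E16.5 epithelium, 0 in the epithelial interaction and 680 in the hair germ contrast, where at least 10 marker UMIs gave 242. The cause was not tested.

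With 1 library left out, calls ranged from 1 to 7015 (members 0 to 6) and 0 to 114 (0 to 2) at E15.5, 39 to 1105 (members 0) and 0 to 369 (0 to 1) at E16.5, 0 to 207 and 0 to 844 for the interactions (members 0), 6688 to 8837 between epithelium and fibroblasts (6), 1 to 1318 (0 to 3) in the hair germ and 870 to 1762 (2 to 4) in the condensate contrast. Differences in the Shh-positive share stayed between -3.49 and -2.30 at E15.5, -3.70 and -1.98 at E16.5 and -3.30 and -2.44 over both, those in Shh of all kept cells between -5.23 and -3.26, -2.92 and -1.95, and -3.83 and -2.85, and those in fibroblast Gli1 between -1.31 and -0.22, -2.49 and -0.96, and -1.63 and -0.87.

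Signs turned for log2 values of members that passed no test. Hair germ and condensate cells stand here for the marker-high groups. With 1 library left out, E15.5 fibroblast Smo ranged from -0.028 to 0.155 and Gli2 from -0.212 to 0.038, E16.5 epithelial Smo from -0.749 to 0.150 and Sufu from -0.354 to 1.095, and E16.5 fibroblast Smo from -0.405 to 0.317 and Sufu from -0.170 to 0.230. Between compartments Ptch1 ranged from -0.051 to 0.102 and Gli2 from -0.036 to 0.136, in hair germ cells Gli3 from -0.214 to 0.190 and Hhip from -0.440 to 1.284, and in condensate cells Gli3 from -0.084 to 0.011. By library size alone signs turned for Sufu at E16.5 (-0.048 in epithelium, -0.100 in fibroblasts), Ptch1 (-0.024) and Gli2 (-0.012) between compartments, and Gli3 in hair germ (0.0054) and condensate cells (0.035). Halved thresholds turned E16.5 fibroblast Sufu (-0.013), Ptch1 between compartments (-0.220), hair germ Hhip (-0.061) and E17.5 epithelial Gli3 (0.108) and Hhip (0.172). Doubled ones turned Gli3 in hair germ (0.301), condensate (0.043) and E17.5 epithelial cells (0.0020) and E17.5 Hhip (0.030). Without cells in both gates E16.5 epithelial Smo (0.142), hair germ Gli3 (0.299) and E17.5 Gli3 (0.060) and Hhip (0.757) turned. E17.5 epithelial Ptch1, Smo and Gli2 turned as well. Their counting intervals in control and QPC cKO had overlapped with all gated cells. Under 5% mitochondrial UMIs Ptch1 between compartments was -0.013, and over all 10 libraries Gli2 was -0.133.

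Controls and MOF cKO share replicate numbers at E16.5 only, and same-numbered libraries did not deviate together (correlations of -0.07 in epithelium and -0.19 in fibroblasts). With the replicate number as a block, 554 genes passed in E16.5 epithelium and 576 in fibroblasts, Ptch1 among the latter (-1.80, adjusted p = 0.0198). Crossing the numbers, an alternative chosen after seeing the data, gave 651 calls in fibroblasts, 2 of them members. Leaving out cells in both gates for the Shh share and E17.5 was chosen likewise. The E16.5 epithelium, with only 69 MOF cKO cells, sets the limit of what could be detected.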

Other observations

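Cells with markers of other classes, in neither gate, were read for the same members. In E15.5 controls 2 and 3 cells with immune markers (550 and 478 cells) held Smo at 20.8 and 19.96 CPM and Sufu at 9.28 and 10.3 CPM, while Gli1 was at 0.94 and 1.03 CPM. Gli3 was at 28.5 and 53.6 CPM in cells with Schwann markers (58 and 113 cells), 40.9 and 37.3 CPM in cells with melanocyte markers (144 and 142 cells) and 0.54 and 0.77 CPM in cells with immune markers. Smo was at 57.0 and 59.8 CPM in the Schwann cells, where Gli1 had 0 UMIs and 1 UMI. Cells with endothelial markers (108 and 98 cells) held Ptch1 at 27.0 and 21.4 CPM with 1 and 3 UMIs of Gli1. These are values with no test, and transcripts free in the suspension can add to them.

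The cells in neither gate and of no marked class did not show the E15.5 pattern of the fibroblasts. Ptch1 in them was at 371 and 233 CPM in E15.5 controls and 263 and 374 CPM in MOF cKO, and Gli1 at 44.5 and 29.7 against 26.4 and 38.5 CPM. Hhip was at 58.9 and 37.0 against 23.2 and 47.5 CPM. The groups overlapped for Ptch1, Gli1 and Hhip, each over 248 to 327 cells per library. At E16.5 only 8 and 20 such cells were left in MOF cKO, too few for a comparison. At E17.5 Ptch1 was at 267 CPM in 69 control cells and 506 CPM in 362 QPC cKO cells, and Hhip at 52.8 and 99.2 CPM.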
